A study of Mus musculus with 22 samples.

Results

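The cytosolic ribosomal proteins are the protein parts of the ribosome that translates messages of the nuclear genome. Their genes were taken by name: Rplp0, Rplp1, Rplp2, Rpsa, and every gene called Rpl or Rps with a number and no suffix other than a, x, l, al or l1, if it averaged at least 10 counts over the 22 libraries. Of 21674 genes listed with symbols, 83 carried such a name and 81 met the count minimum, 50 of the large subunit and 31 of the small subunit. The 2 names under the minimum were Rpl3l (mean count 3.5) and Rpl10l (0), relatives of Rpl3 and Rpl10 that are known from muscle and from testis, and the lowest member was Rpl39l (59.0). All 81 genes also passed the expression filter of the test, so the 81 members below are all members.

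The libraries were bulk RNA sequencing of mouse CD8+ T cells, either naive or stimulated for 24 h and 48 h. Stimulation was with anti-CD3 bound to the plate (2 µg per ml) and anti-CD28 in solution (1 µg per ml), which stand in for antigen and for costimulation. The comparison covered 3 genotypes. KI cells came from 3 mice with a conditional knock-in of Tcaim, in the line labelled Tcaim KI Cd4Cre with the genotype code hocre. The wt cells came from 3 mice of that line with the code wtcre. KO cells came from 2 mice of the line labelled Tcaim KO Cd4Cre, code hocre. All 3 codes name Cre, and the lines name a Cd4 driver, which is active in developing T cells; no mouse without Cre was analysed here. KI and wt cells were sequenced naive, at 24 h and at 48 h, and KO cells naive and at 48 h. The labels used here give no ages, and name no wt littermates for the KO line. Mice belonged to experiments 1, 3 and 5. KI and wt mice were male in experiments 1 and 3 and female in experiment 5, and both KO mice (experiments 1 and 5) were female. The question set by the series title is whether Tcaim alters the rise of anabolism after activation, of which making ribosomes is a large part.

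A ribosome needs each of its proteins in about the same amount, so cells tend to control these genes together. Much of that control acts on translation: ribosomal protein messages begin with a C and a run of pyrimidines, the 5′ terminal oligopyrimidine motif, through which the kinase mTORC1 and the RNA-binding protein Larp1 set how much of the message is translated. Resting T cells translate little, and their translation rises quickly once they are stimulated. A further property matters for sequencing counts: mammalian genomes hold many processed pseudogenes of ribosomal protein genes, near-identical intronless copies to which reads can also be assigned.

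Total counts per library ran from 62551905 to 93489115. Tcaim itself stood at 138 to 145 CPM (the count relative to the scaled library total) in naive KI libraries and 178 to 260 in stimulated ones, against 8.38 to 15.2 in wt. The libraries labelled KO held 5.99 to 19.6 CPM, overlapping wt, so the counts over the whole gene did not separate these libraries from wt. Markers of CD8 T cells (6 of 6 genes measured) summed to 2385 to 5157 CPM in every library. Markers of myeloid cells and NK cells were higher in naive than in stimulated libraries, with no overlap in any genotype, and those of B cells in wt, while B cell sums overlapped in KI and KO. The 5 B cell genes summed to 133 to 1256 CPM in naive and 33.1 to 245 in stimulated libraries, and the 6 myeloid genes to 79.2 to 220 and 10.9 to 41.7, with C1qa at 0 in the wt stimulated libraries. CD4 T cell sums overlapped between naive and 48 h libraries in each genotype (45.3 to 62.5 CPM in naive KI and 43.6 to 72.4 in KI at 48 h). In wt they were at 52.1 to 91.6 CPM naive and 30.4 to 50.8 at 24 h, without overlap, while KI at 24 h overlapped naive KI. The 4 dendritic cell genes summed to 7.54 to 10.8 CPM in wt at 48 h against 4.41 to 7.37 naive. In KI the sums were 8.48 to 10.2 against 4.45 to 5.62. Of these genes only Zbtb46 rose from naive to 48 h (wt means 1.32 and 7.58 CPM). Means of Flt3 (2.27 and 0.432), Siglech (1.18 and 0.0212) and Xcr1 (1.58 and 0.629) fell in wt, and also in KI. The 5 salivary gland markers summed to 30.4 to 73.8 CPM in the libraries labelled KO naive and to at most 12.6 in any other group. The highest B cell and CD4 T cell sums (1256 and 283 CPM) were in the group labelled KO naive, and of the stimulated libraries the highest CD4 T cell sum (188 CPM) was in one labelled KO 48 h. The part of these markers in the results below was not tested. The library labelled KO 48 h from experiment 1 stood apart from its replicate in several members, and its effect is given where leaving it out changed the call of a member named below or moved a KO median by over 1.5 times. In bulk samples, a change in the number of cells of a type and a change of RNA per cell cannot be told apart, and all values are relative to a library's total.

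The 81 members together took 2.45% to 3.39% of all counts of a library, and the naive and stimulated ranges of this share overlapped in each genotype. In naive wt cells it was 2.94%, 2.56% and 3.39% in experiments 1, 3 and 5; at 24 h it was 2.63%, 2.52% and 2.60%, and at 48 h 2.59%, 2.75% and 2.97%. In naive KI cells the share was 2.75%, 2.75% and 2.84%, at 24 h 2.61%, 2.51% and 3.12%, and at 48 h 2.57%, 2.55% and 3.04%. Within wt mice, stimulated minus naive was below 0 in all 3 at 24 h (-0.302, -0.0401 and -0.787 percentage points) and in 2 of 3 at 48 h (-0.351, 0.188 and -0.420). In KI mice the differences were -0.136, -0.236 and 0.279 points at 24 h and -0.180, -0.198 and 0.206 at 48 h. The libraries labelled KO went opposite ways, from 2.59% to 3.26% in experiment 1 and from 3.04% to 2.45% in experiment 5.

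**Figure D1:**
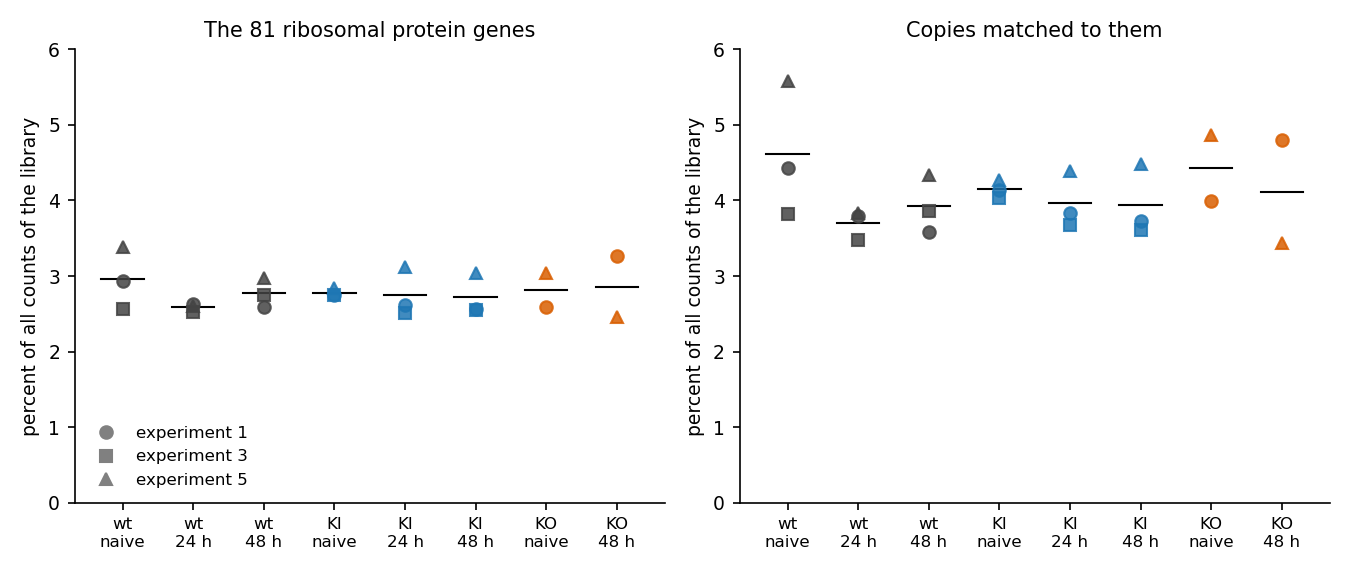
Percent of all counts of each library on the 81 ribosomal protein genes (left) and on the copies matched to them (right), by genotype and time; each point is a library, its shape the experiment, and the line the group mean. Members took 2.45% to 3.39% and the copies 3.43% to 5.58%, and naive and stimulated libraries overlap in both panels.

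More counts lay on copies than on the genes themselves. Of 9158 pseudogenes and entries named as copies, 878 had a transcript at least 90% identical over at least 50% of its length to a member's transcript. These copies took 3.43% to 5.58% of a library's counts, and 78 of 81 members had at least 1. For 54 members less than 50% of the summed counts of gene and copies lay on the gene, and the median over members was 31.3%. The extreme was Rps27, a small-subunit protein with a zinc finger, for which 1.18% of the sum lay on the gene and the rest mostly on an annotated copy named Rps27rt. Rpl5, which binds 5S rRNA, had 4.48% and Rps6, the substrate of S6 kinase, 4.35%. At the other end, the stalk proteins Rplp1 and Rplp2 had 98.2% and 100.0%, Rps3 had 97.4%, Rpl10 had 93.2%, and Rpl8, Rps9 and Rpl39l had all or nearly all. Which of the 2 places a read came from is not settled by these counts, so each result below is given for the gene's own counts and, where it differs, for the gene and its matched copies summed. In addition, 39 members have an exon over an exon of another gene, mostly small nucleolar RNA genes on the same strand.

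Levels per length, as deposited FPKM averaged over 22 libraries, were among the highest for Rpl4 (2794), Rpl8 (2212), the stalk protein Rplp1 (1876) and Rps15 (1475). They were lowest for Rpl39l (1.04), Rpl23a (9.89), Rpl35 (10.04), Rps28 (10.7) and Rps27 (10.8). Rpl39l is a relative of Rpl39 known from testis. Of the other 4, Rps27 had 1.18% and the rest 3.49% to 13.7% of their summed counts on their own gene, so these levels are those of the reads placed on the gene, not of the message.

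Activation changed some members in each direction and left the middle of the family near 0. At 24 h, wt cells had 7 members called higher and 16 lower than in naive cells (edgeR quasi-likelihood F test, adjusted p under 0.05 over 21183 genes, here and below), where 26.3% of all tested genes were called higher and 22% lower. At 48 h, 9 were higher and 15 lower, against 29.5% and 26.8% of all genes. KI cells had 10 higher and 6 lower at 24 h (22.9% and 15.8% of all genes) and 9 higher and 11 lower at 48 h (26.6% and 22.1%). The libraries labelled KO had 9 higher and 6 lower at 48 h (23.6% and 20.4%). Of the 81 members, 60 to 65 lay within 0.5 of 0 on the log2 scale in each of these comparisons.

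The members' median log2 fold change was -0.09 in wt at 24 h and -0.01 at 48 h, 0.03 and 0.02 in KI, and 0.10 in the libraries labelled KO, beside medians over all tested genes of -0.05, -0.04, 0.01, -0.02 and 0.01. These medians turned or stayed below 0 under upper-quartile scaling, which moved the median of all genes by -0.17 to -0.22: they were then -0.28, -0.23, -0.15, -0.16 and -0.07. The split of calls moved with them, as did that of all genes. It became 4 higher and 27 lower in wt at 24 h (21.4% and 28.8% of all genes in the same fit), 5 and 25 at 48 h (24.2% and 33.9%), 5 and 13 in KI at 24 h (18.1% and 22.2%), 4 and 26 at 48 h (21.6% and 28.7%), and 7 and 13 in KO (19.4% and 25.6%). With library size alone, the splits were 7 and 19 for wt at 48 h (27.5% and 29.1%), 8 and 10 for KI at 24 h (21.2% and 17.4%) and 8 and 11 for KO (21% and 23.1%). With DESeq2 they were 5 and 11 for KI at 24 h (21.1% and 21.1%) and 8 and 15 at 48 h (25.8% and 25.5%). The members' medians in KI were then also below 0 (-0.03 and -0.05 with library size alone, -0.07 and -0.03 with DESeq2). Without the library labelled KO 48 h from experiment 1, the KO comparison had 5 higher and 12 lower (23.3% and 20.2% of all genes in that fit) and a median of -0.13.

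**Figure D2:**
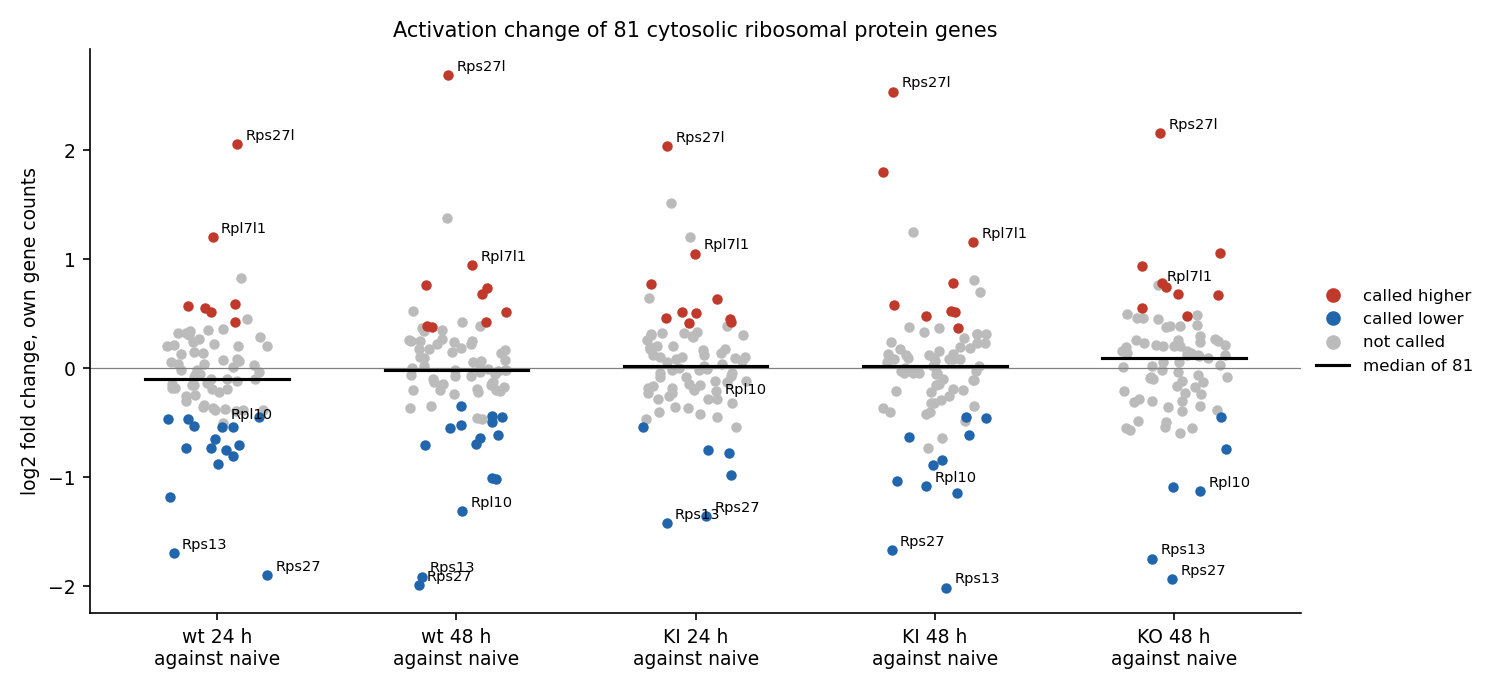
Log2 fold change of each of 81 members (own gene counts) in 5 comparisons of stimulated with naive cells; red and blue points were called higher and lower, grey points were not called, and black lines are medians. Most points lie within 0.5 of 0, with Rps27l above 2 and Rps27 and Rps13 below -1.3 in each comparison.

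The subunits are shown separately because their proteins are assembled on separate particles. In wt cells at 48 h, the 50 large-subunit members had 7 calls higher, 7 lower and a median of 0.04, and the 31 small-subunit members 2 higher, 8 lower and a median of -0.13. Of all tested genes, 29.5% were called higher and 26.8% lower in that comparison. KI cells at 48 h had medians of 0.08 and -0.11, and the libraries labelled KO 0.13 and -0.03. No test of the difference between subunits was made.

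Across the 5 comparisons, 38 members were called at least once, 17 of them higher and 21 lower, none in both directions, and 43 were called in none. In single comparisons, 38.7% (KI at 24 h) to 56.3% (wt at 48 h) of all tested genes were called. The shares of all genes called at least once, in all 5 or in both directions were not counted. The comparisons share naive libraries within a genotype. Rps27l, Rpl29, Rpl36a and Rpl41 were called higher in all 5, and Rps13, Rps27 and Rps28 lower in all 5. With the copies summed, Rps27l, Rpl29, Rpl41, Rpl7l1 and Rps2 were called higher in all 5 and Rps27 alone lower in all 5. Calls with copies numbered 7 higher and 18 lower in wt at 24 h (26.7% and 22.3% of 20723 genes then tested) and 7 and 12 at 48 h (30% and 27.2%). They were 10 and 1 in KI at 24 h (23.4% and 16%), 9 and 2 at 48 h (27.1% and 22.4%), and 10 and 3 in KO (24.2% and 20.7%). Of the calls made on the gene's own counts, 5 higher and 13 lower in wt at 24 h, 6 and 10 at 48 h, 8 and 1 in KI at 24 h, 7 and 2 at 48 h, and 7 and 2 in KO were also made with copies.

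Rps27 and its relative Rps27l (Rps27-like), a known p53 target, went opposite ways. Both encode forms of the small-subunit protein eS27. Rps27 lies at chromosome 3, 90212522 to 90213651, and Rps27l at chromosome 9, 66946086 to 66949516 (GRCm38, span of the whole gene). In naive wt libraries Rps27l stood at 15.5, 15.7 and 23.7 CPM in experiments 1, 3 and 5. It stood at 80.0, 79.2 and 69.8 CPM at 24 h and 114, 97.3 and 143 CPM at 48 h, above every naive wt library. In KI libraries Rps27l was at 13.7, 14.4 and 16.6 CPM naive, 61.4, 57.4 and 65.2 at 24 h and 79.6, 79.8 and 100.4 at 48 h, again without overlap. The libraries labelled KO had 18.1 and 19.1 CPM naive and 52.3 and 114 at 48 h, the lower of these from the experiment 1 library that stood apart. Rps27l rose by 2.06 ± 0.23 (log2, SE) in wt at 24 h and 2.69 ± 0.23 at 48 h (adjusted p 7.53e-07 and 2.28e-08), 2.04 ± 0.23 and 2.54 ± 0.23 in KI (1.37e-06 and 6.78e-08), and 2.16 ± 0.28 in KO (6.58e-06). It was the largest rise of any member in each of these comparisons. With its 3 matched copies, on which 26.9% of the sum lay, the rises differed from these by at most 0.03.

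Rps27, the more widely studied of the pair, stood at 20.1, 13.9 and 18.4 CPM of own counts in naive wt libraries and at 3.89, 4.81 and 5.38 CPM at 24 h. At 48 h the wt values were 3.96, 4.23 and 5.04 CPM, so that stimulated and naive libraries did not overlap. In KI libraries it was at 21.03, 15.8 and 14.5 CPM naive, 5.83, 6.03 and 8.20 at 24 h and 5.54, 4.92 and 5.67 at 48 h. Rps27 fell by 1.90 and 1.99 on the log2 scale in wt (SE 0.20 for each, adjusted p 3.86e-07 and 1.40e-07), 1.35 and 1.67 in KI (2.38e-05 and 1.58e-06), and 1.94 in KO (4.59e-06). Gene and copies summed were at 1118, 998 and 2078 CPM in naive wt libraries, 517, 441 and 541 at 24 h and 424, 464 and 575 at 48 h, again without overlap, and in KI libraries at 1083, 1098 and 1127 naive and 516 to 778 stimulated. On that sum Rps27 fell by 1.48 and 1.52 in wt (adjusted p 4.99e-05 and 2.84e-05), 0.73 and 0.77 in KI (0.0186 and 0.0107), and 1.33 in KO (0.00116). The log2 ratio of Rps27l to Rps27 summed with copies was -5.74 ± 0.21 (SD, n = 3) in naive wt cells, -2.24 ± 0.24 at 24 h and -1.60 ± 0.18 at 48 h. In KI cells it was -5.73 ± 0.12, -2.97 ± 0.13 and -2.42 ± 0.19, so the copies-summed form named Rps27 remained the more abundant by counts in every group.

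The sequences around the annotated starts of this pair, and of 4 members discussed below, are shown to compare the pyrimidine run at the start between members that rose and members that fell. Each stretch (RefSeq, GRCm38.p6) holds 30 bases before the annotated start and the 20 bases from it, on the strand of the gene, and capitals mark the longest unbroken run of C and T within 20 bases of the start.
Rps27, chr3:90213629-90213678, minus strand: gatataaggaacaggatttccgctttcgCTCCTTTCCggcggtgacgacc
Rps27l, chr9:66946056-66946105, plus strand: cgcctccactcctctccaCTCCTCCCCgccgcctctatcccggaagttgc
Rpl10, chrX:74270786-74270835, plus strand: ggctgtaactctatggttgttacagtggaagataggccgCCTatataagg
Rpl41, chr10:128549149-128549198, minus strand: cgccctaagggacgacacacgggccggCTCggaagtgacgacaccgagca
Rps2, chr17:24720033-24720082, plus strand: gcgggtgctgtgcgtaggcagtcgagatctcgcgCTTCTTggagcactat
Rpl12, chr2:32961682-32961731, plus strand: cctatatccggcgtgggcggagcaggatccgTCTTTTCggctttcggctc
Rps27 and Rps27l both held a run of 9 pyrimidines, which began 2 bases before the annotated start in Rps27 and 12 bases before it in Rps27l. The table lists another start of Rps27l, downstream of the one shown, whose longest run was 4. Rpl10 and Rpl41 held runs of 3.

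Of the 81 members, 61 had at least 1 start in the RefSeq promoter table, 9 of them more than 1. A pyrimidine run of at least 8 within 20 bases of the start was present in 49.2% of these members, against 18.4% of the 27025 genes in the table. A C at the annotated start followed by pyrimidines in an unbroken run of at least 5 was present in 21.3% against 3.01%. In the window of 250 bases before to 50 after the start, on either strand, CCGGAAG, letters found in sites of ETS factors, was present in 41% of members and 9.93% of all genes, and GGGCGG, the GC box, in 62.3% and 38.2%. AGATGGC, part of a Yy1 site, was present in 13.1% and 7.31%, CACGTG, the E-box that Myc can bind, in 9.84% and 8.09%, and TATAAA in 11.5% and 15.7%. None of these motifs contains another. The long pyrimidine run was found in 8 of 15 members with a promoter that were called higher at least once, 7 of 14 called lower and 15 of 32 not called, and CCGGAAG in 8, 3 and 14 of them. These are matches to letters at annotated starts, not measured start sites.

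Rpl10, a large-subunit protein that joins late in the cytoplasm and lies near the catalytic centre, was lower at 48 h and not called at 24 h. The gene (chromosome X, 74270812 to 74273135) held 93.2% of the summed counts, and an exon of it overlaps the small nucleolar RNA gene Snora70 on the same strand. In wt libraries it was at 72.4, 69.4 and 68.5 CPM naive, 54.9, 39.3 and 54.1 at 24 h and 32.7, 25.2 and 26.9 at 48 h. The 3 time points did not overlap in wt. KI libraries had 79.7, 78.6 and 56.6 CPM naive, 46.7, 43.6 and 87.0 at 24 h and 31.1, 38.2 and 32.5 at 48 h, where the 24 h range covered the naive one. Libraries labelled KO had 72.3 and 77.1 CPM naive and 33.8 and 34.9 at 48 h. Rpl10 fell by 1.31 ± 0.21 at 48 h in wt (log2, SE, adjusted p 4.40e-05), 1.08 ± 0.21 in KI (0.000386) and 1.122 ± 0.26 in KO (0.00190), and at 24 h the values were -0.50 (0.0550) in wt and -0.28 (0.315) in KI.

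Rpl10 was also the member called between 24 h and 48 h. In wt cells it fell by 0.81 ± 0.21 (adjusted p 0.0254) and was the 1 call among 81 members, where 7.49% of all genes were called, and in KI cells it fell by 0.80 (0.0484), again the 1 call, where 2.68% of all genes were called. The wt call was lost when any 1 of the 3 wt mice was left out and when wt 24 h and 48 h libraries were fitted alone. The KI call of Rpl10 was lost without any 1 of the KI mice, with copies, and with the experiment as a block (adjusted p 0.0569). With that block 2 members were called in wt (8.57% of all genes) and 0 in KI (3.58%). Rps27l, at 0.63 ± 0.22 between 24 h and 48 h in wt, was not called (0.0901).

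Rpl7l1, a relative of Rpl7 known from precursors of the large subunit, was higher after activation. It stood at 58.4, 56.2 and 75.6 CPM in naive wt libraries, 152, 166 and 122 at 24 h and 131, 89.0 and 147 at 48 h, without overlap with naive. KI libraries had 54.4, 63.1 and 68.1 CPM naive, 129, 120.4 and 136 at 24 h and, at 48 h, 127, 125 and 164. In the libraries labelled KO it went from 61.8 to 150.2 CPM in experiment 5 and from 60.3 to 57.2 in experiment 1. Rpl7l1 rose by 1.21 ± 0.25 and 0.95 ± 0.25 in wt (adjusted p 0.000674 and 0.00366) and 1.05 ± 0.25 and 1.16 ± 0.25 in KI (0.00273 and 0.000926), while the KO value of 0.77 ± 0.31 was not called (0.0505). Without the library labelled KO 48 h from experiment 1, Rpl7l1 rose by 1.30 in KO (0.000258). The wt call at 48 h was lost without wt replicate 1. Rpl7 itself was not called in any of these comparisons, with values of 0.24 to 0.47.

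**Figure D3:**
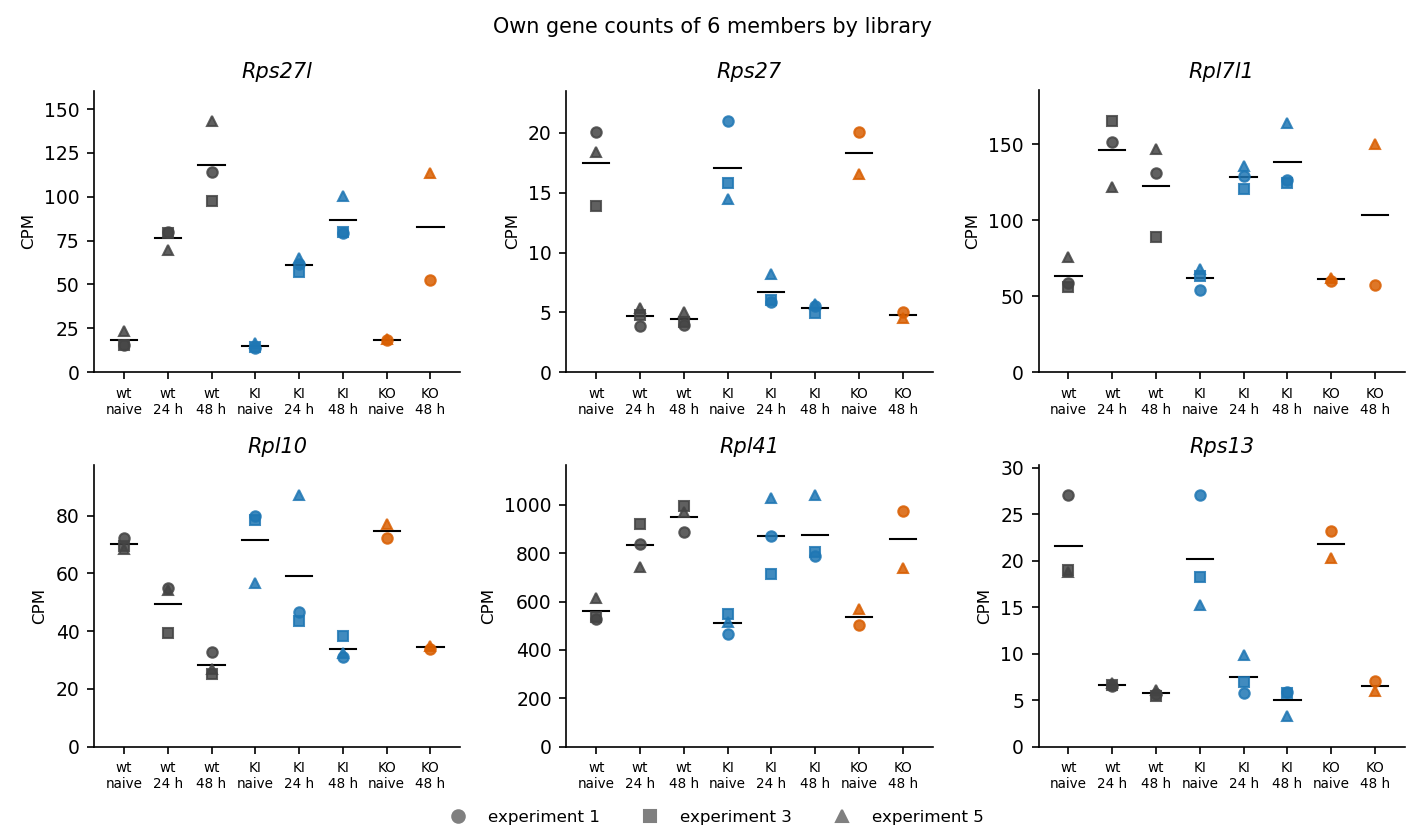
Own gene counts, as CPM of the scaled library total, of 6 members in each library; point shape is the experiment and lines are group means. Naive and stimulated wt libraries do not overlap in any of the 6 panels, and the KO 48 h library of experiment 1 lies at 57.2 CPM for Rpl7l1, within the range of all naive libraries. All 6 members shown were called in wt at 48 h, and the share of all genes without overlap is not given.

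Rpl41, the shortest ribosomal protein, was at 527, 538 and 615 CPM in naive wt libraries, 839, 920 and 744 at 24 h and, at 48 h, 887, 994 and 972. In KI libraries it was at 468, 548 and 517 CPM naive and 713 to 1040 stimulated, so neither genotype overlapped between naive and stimulated cells. It rose by 0.57 and 0.76 in wt, 0.77 and 0.78 in KI and 0.68 in KO (log2, SE 0.15 to 0.18, adjusted p 0.000285 to 0.00594), and by 0.59 to 0.81 with copies. Leaving out wt replicate 1 or 3 ended the call in wt at 24 h. Rpl29, of the large subunit, went from 217 to 240 CPM in naive wt libraries to 301 to 352 in stimulated ones, and rose by 0.52 to 0.74 in the 5 comparisons. The KO call of Rpl29 was lost without the library labelled KO 48 h from experiment 1. Rps2, of the small subunit near the entry channel of the message, went from 128 to 150 CPM to 196 to 235 in wt. It rose by 0.59 and 0.69 in wt, 0.52 in KI at 48 h and 0.79 in KO, and was not called in KI at 24 h (0.39, adjusted p 0.0564). With copies Rps2 rose by 0.45 there (0.0269). Its call in wt at 24 h was lost without wt replicate 1, that in KI at 48 h without KI replicate 3 or 5, and that in KO without the experiment 1 library.

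Several falls on the gene's own counts were not called once copies were added. Rps13, a small-subunit protein with 5.39% of the summed counts on its gene, was at 27.1, 18.97 and 18.8 CPM in naive wt libraries and 5.49 to 6.86 in stimulated ones. It fell by 1.70 and 1.91 in wt and 2.01 in KI at 48 h (adjusted p 1.81e-05, 3.58e-06 and 3.01e-06). The sum with copies was at 252, 217 and 242 CPM naive and 176 to 221 stimulated, with changes of -0.27 and -0.25 in wt (0.123 and 0.146) and -0.19 in KI (0.277). Rps28, of the small subunit, fell by 0.78 to 1.08 on its own counts in the 5 comparisons, and with copies by 0.41 and 0.33 in wt (0.0173 and 0.0474), with no call in KI or KO. Rpl12, a large-subunit protein at the base of the stalk, fell by 0.87 and 0.70 in wt on its own counts and by 0.64 and 0.63 with copies (0.0173 and 0.0159). In KI cells Rpl12 fell by 0.98 and 1.14 on its own counts and was not called with copies (-0.33 and -0.37). Rpl36a, of the large subunit, rose by 0.37 to 0.69 on its own counts, 3.85% of the sum, and its value with copies was -0.23 and -0.20 in wt, uncalled. Rps29 had a call in KI at 48 h (1.80, adjusted p 0.0366) with values from 3.69 to 37.3 CPM scattered within groups. With copies Rps29 was at -0.32 there and fell by 0.54 and 0.67 in wt (0.0184 and 0.00357).

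Other falls in wt cells were called both ways. Rpl17, of the large subunit at the exit of the peptide tunnel, fell by 1.18 and 1.01 in wt at 24 h and 48 h on its own counts and by 0.62 and 0.48 with copies (adjusted p 0.00552 and 0.0214 with copies). The small-subunit members Rps24, Rps7 and Rps15a and the large-subunit member Rpl30, named after their values were seen, also fell in wt at both times on their own counts (by 0.52 to 0.73) and with copies (by 0.53 to 0.76). On own counts in KI, Rps15a was called lower at 24 h and 48 h, Rpl17 and Rps7 at 48 h, and Rps24 and Rpl30 at neither time. With copies, none of these 5 was called in KI at either time. That difference between genotypes was not called for any member by the interaction terms given below. Rpl9, of the large subunit, fell by 0.74 and 0.84 in KI on its own counts, with values of 0.04 and 0.01 with copies. Rpl35, also of the large subunit, rose by 0.55 and 0.74 in wt and 0.94 in KO on its own counts and was called in none of these with copies (0.17 to 0.26).

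**Figure D4:**
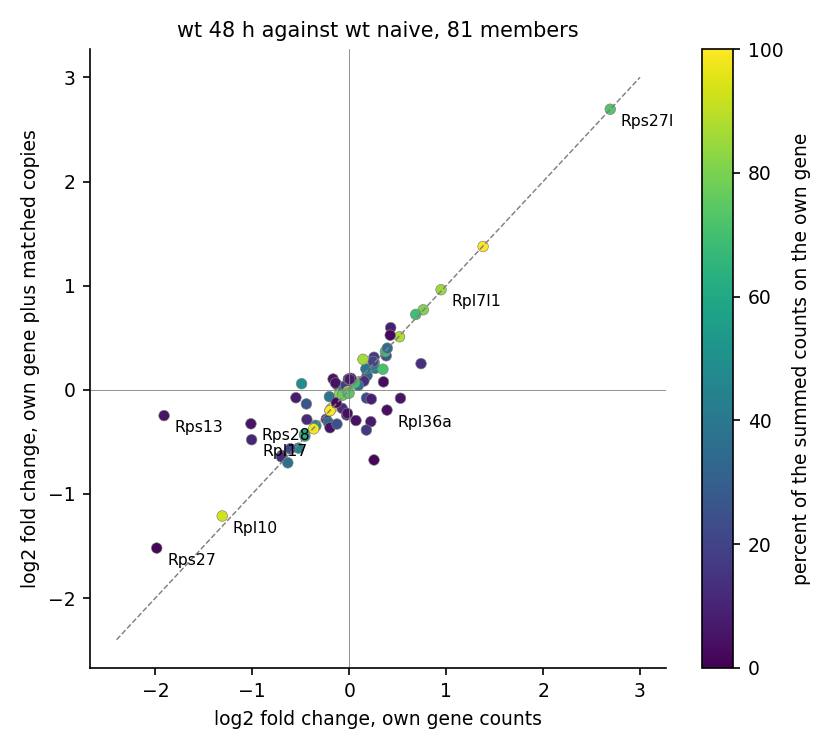
Log2 fold change of the 81 members in wt cells at 48 h against naive, from the gene's own counts (x) and from gene and matched copies summed (y); colour is the percent of the summed counts on the own gene, and the dashed line marks equal values. Rps27l, Rpl7l1 and Rpl10 lie on or near the line, and Rps13 moves from -1.91 to -0.25.

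Call counts are listed here by the share on the own gene, and no test of the difference between the classes was made. Of all tested genes, 29.5% were called higher and 26.8% lower in wt at 48 h, and 26.6% and 22.1% in KI. In wt cells at 48 h, 4 of the 54 members with under 50% of the sum on their gene were called higher and 13 lower. Of the 19 with 50% to 90%, 5 were higher and 1 lower. Of the 8 with at least 90%, 0 were higher and 1, Rpl10, lower. KI cells at 48 h had 3 and 10, 6 and 0, and 0 and 1 in the same order.

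Other variant members and their namesakes gave fewer calls. Rpl22, which is needed for the development of αβ T cells, was at 293 to 509 CPM in naive wt libraries and 337 to 437 in stimulated ones and was not called in any activation comparison (-0.15 to 0.24). Its relative Rpl22l1 was at 65.8 to 126 CPM and 65.3 to 91.2 CPM in the same libraries and was not called either (-0.39 to 0.18), except that without the library labelled KO 48 h from experiment 1 Rpl22l1 fell by 0.75 in KO (adjusted p 0.0379). The log2 ratio of Rpl22l1 to Rpl22 was -2.08 ± 0.07 (SD, n = 3) in naive wt cells, -2.30 ± 0.12 at 24 h and -2.32 ± 0.23 at 48 h. Rpl36al, a relative of Rpl36a, rose by 0.45 and 0.48 in KI (adjusted p 0.0331 and 0.0207), calls that were lost without KI replicate 1 or 5, and was at 0.29 and 0.37 in wt, uncalled. Rpl3 (-0.16 to 0.13) and Rps4x, the X-linked form of that small-subunit protein (-0.09 to 0.23), were not called, and Rps4l was not analysed here. Rpl39 and Rpl39l were not called, and Rpl39l held 0.0283 to 3.22 CPM.

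The proteins of the stalk, which recruits elongation factors, changed little. Rplp0 was at 1350, 1139 and 1586 CPM in naive wt libraries and 1227 to 1363 in stimulated ones, and its log2 changes were -0.08 to 0.14 (SE 0.15 to 0.18), uncalled. Rplp1 fell by 0.53 ± 0.19 in wt at 24 h (adjusted p 0.0317), a call that was lost without wt replicate 1 and without wt replicate 5, and it was not called elsewhere (-0.20 to -0.37). Rplp2 was not called (-0.02 to -0.23). Rpsa, a small-subunit protein also known as a laminin receptor precursor, lay at 0.04 to 0.38 and Rps6 at -0.64 to -0.14, uncalled. Rpl5 and Rpl11, which with 5S rRNA can bind the p53 regulator Mdm2, were uncalled on their own counts (-0.49 to 0.07 and -0.17 to 0.21), and with copies Rpl5 fell by 0.53 in wt at 24 h (0.0229).

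Genes that make and serve ribosomes were counted in the same fits, and no test of their difference from the members was made. Beside the counts at 24 h stand the shares of all genes called there: 26.3% higher and 22% lower in wt, and 22.9% and 15.8% in KI. Of 52 ribosome biogenesis factors tested, 43 rose and 0 fell in wt at 24 h, with a median of 0.94 on the log2 scale, and 44 and 0 at 48 h (0.90). KI cells had 29 and 0 at 24 h (0.59) and 34 and 0 at 48 h (0.60), and the libraries labelled KO 33 and 0 (0.78), or 47 and 0 with a median of 1.23 without the 48 h library from experiment 1. Npm1, a nucleolar chaperone, rose by 1.75 ± 0.12 in wt at 24 h, Ncl, nucleolin, by 1.98 ± 0.18, and Fbl, the methyltransferase fibrillarin, by 1.11 ± 0.25 (adjusted p 2.21e-09, 8.95e-08 and 0.00115). Of 82 mitochondrial ribosomal proteins, which build the other ribosome of the cell, 72 rose and 0 fell in wt at 24 h (0.94) and 67 and 0 in KI (0.80). Under upper-quartile scaling these medians were 0.75 and 0.42 for the biogenesis factors in wt and KI at 24 h, and 0.75 and 0.63 for the mitochondrial ribosomal proteins. Between KI and wt at 24 h, 0 genes of either list were called, and the interaction term for KI at 24 h also called 0.

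Of 32 initiation factors 23 rose and 2 fell in wt at 24 h (median 0.91), and of 15 elongation factors and associated genes 10 rose and 1 fell (0.72). Among the latter, Eif5a, which helps the ribosome past difficult peptide bonds, rose by 1.95 ± 0.30, while Eef1a1, which delivers aminoacyl-tRNA, was at -0.02 ± 0.16 (adjusted p 0.915). Of 15 genes of RNA polymerase I, which transcribes ribosomal RNA, 7 rose and 1 fell in wt at 24 h (0.38). Of 17 chaperones and importers of ribosomal proteins, 11 rose and 0 fell (0.73). In the list around mTORC1, Larp1 and Myc, 9 of 19 rose and 2 fell in wt at 24 h (0.32), among them Eif4ebp1, the translational repressor phosphorylated by mTORC1, which rose by 2.36 ± 0.31. Of 14 ribosome quality control genes, 7 rose and 0 fell (0.31). KI cells had fewer calls and lower medians in these last lists at 24 h, where 22.9% of all tested genes were called higher and 15.8% lower. The mTORC1 list had 5 higher and 0 lower there (0.09). The quality control list had 2 higher and 0 lower in KI at 24 h (0.09), and 6 and 0 in KI at 48 h (0.02). Between KI and wt at 24 h, 0 genes of these last lists were called, and the interaction term for KI at 24 h also called 0. The mTORC1 list had more falls and a higher median in wt cells at 48 h (9 higher, 5 lower, 0.37).

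**Figure D5:**
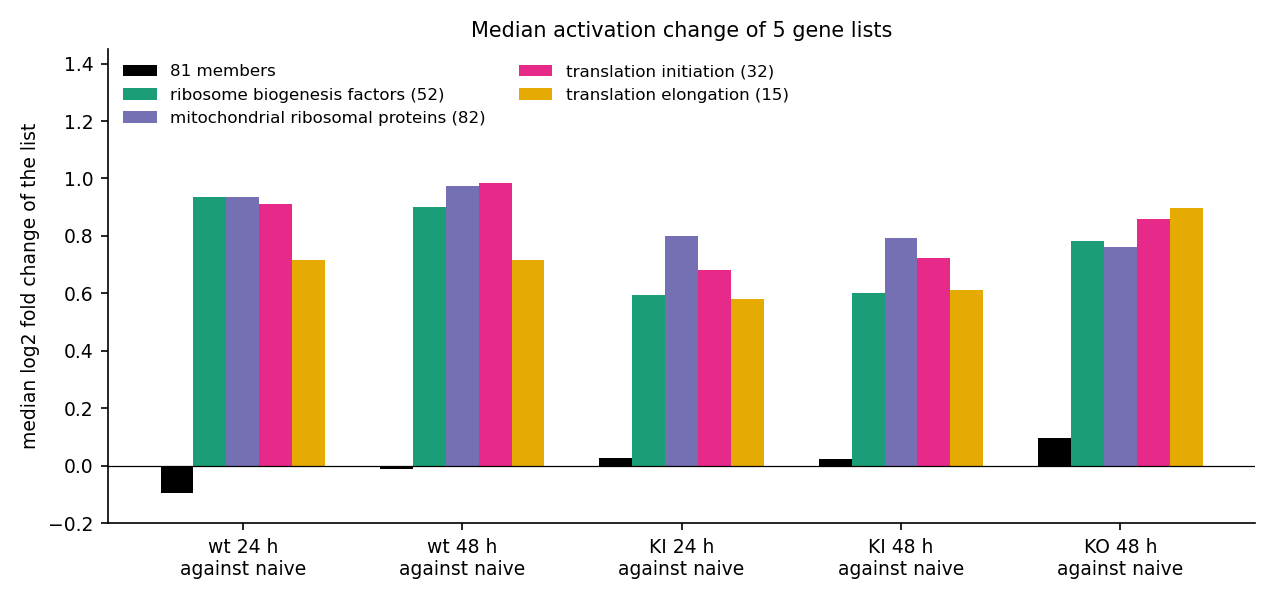
Median log2 fold change of the 81 members and of 4 other lists in 5 comparisons of stimulated with naive cells; bars are medians over the genes of a list, and the number of genes tested is in brackets. The members' medians lie between -0.09 and 0.10, and those of the other lists between 0.58 and 0.98.

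Ribosomal proteins that the naming rule left out gave few calls: of 7 tested, 0 rose and 1, Rps27rt, fell in each of the 5 comparisons. Rps27rt, the copy that holds most counts of the Rps27 sequence, fell by 1.51 ± 0.24 in wt at 48 h (adjusted p 2.99e-05) and 0.76 ± 0.23 in KI (0.0114). Rack1, a scaffold on the small subunit, was at -0.06 ± 0.15 in wt at 48 h. Of 11 genes in the list of p53, its regulators and its targets, 7 rose and 2 fell in wt at 48 h (median 1.67) and 6 and 2 in KI (0.87). Of all tested genes, 29.5% were called higher and 26.8% lower in wt at 48 h, and 26.6% and 22.1% in KI. Among the genes that rose, Phlda3 went up by 5.30 ± 0.41 in wt at 48 h, Cdkn1a, the cell cycle inhibitor p21, by 5.26 ± 0.57, and Zmat3 by 2.50 ± 0.18. Rps27l, described above, is not in that list, and no link between it and these genes was tested.

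No member was called between genotypes. KI against wt gave 0 calls naive, at 24 h and at 48 h (edgeR, and 0 with DESeq2), where 0.113%, 0.00472% and 4.17% of all genes were called. Members with an unadjusted p under 0.05 numbered 0, 2 and 2, against 2.05%, 8.98% and 17.9% of all genes. At 24 h these were Rpl17 (0.82 ± 0.24 higher in KI, adjusted p 0.413; 0.14 with copies) and Rps27 (0.51 ± 0.19 higher, 0.462), and at 48 h Rpl12 (-0.47 ± 0.19, 0.185) and Rpl10a (-0.34 ± 0.16, 0.262). Rps27a, a fusion of ubiquitin and a small-subunit protein, lay farther from the members' median at 48 h (-0.73 ± 0.41, adjusted p 0.378) and was at 0.07 with copies. The members' median differences were -0.07, 0.07 and -0.04. Rps27l was at -0.45 ± 0.22 in KI at 48 h (adjusted p 0.291), with KI libraries at 79.6 to 100.4 CPM and wt libraries at 97.3 to 143 CPM. Rps27l was lower in KI than in wt of the same experiment in all 3 experiments at each of the 3 times, and with the experiment as a block its adjusted p at 48 h was 0.168. The 3 times come from the same 3 KI and 3 wt mice and are not independent. The share of all genes with that pattern was not counted. In the same comparison 2 of 11 genes of the p53 list, Zmat3 (-0.93 ± 0.17, adjusted p 0.00451) and Ccng1 (-0.68 ± 0.18, 0.0410), were called lower and Sesn1 higher.

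Within experiments, the mean log2 difference of the members between KI and wt was -0.04, 0.15 and -0.31 in naive cells of experiments 1, 3 and 5, -0.07, -0.06 and 0.24 at 24 h, and -0.10, -0.06 and -0.04 at 48 h. The sign differed between experiments in naive cells and at 24 h. At 48 h all 3 were below 0, and no test was made of these means over the members.

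KO against wt gave 0 calls naive and 0 at 48 h, where 0.0236% and 0.0283% of all genes were called. Members with an unadjusted p under 0.05 numbered 0 and 1, against 1.31% and 6.92% of all genes, and the 1 was Rpl12 (0.45 ± 0.21, adjusted p 0.714). Rpl27, of the large subunit, had a value of -0.81 with a standard error of 0.67, and of -0.28 without the library labelled KO 48 h from experiment 1. The members' mean difference at 48 h was 0.24 in experiment 1 and -0.26 in experiment 5, so the 2 libraries labelled KO 48 h lay on opposite sides of wt. Without KO replicate 5, 6 of 81 members were called at 48 h, where 21.5% of all genes were called in that fit. Without the experiment 1 library 0 members were called, where 0.0317% of all genes were.

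Whether activation changed the members differently by genotype was tested with interaction terms, none of which called a member. The terms were KI at 24 h (0% of all genes called), KI at 48 h (0.387%) and KO at 48 h (0%). Unadjusted p under 0.05 was reached by 1, 0 and 0 members with edgeR, against 3.28%, 9.7% and 2.32% of all genes, and DESeq2 also called 0. The 1 was Rpl17 at 24 h (0.86 ± 0.34, adjusted p 1.00; 0.30 with copies). For Rps27 the term at 24 h was 0.54 ± 0.27 on its own counts and 0.75 ± 0.33 with copies, uncalled (adjusted p 1.00 for both). The median standard error of a member's difference between KI and wt was 0.18, and that of an interaction term for KI 0.25.

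Beyond the group means, members tended to deviate together from library to library. Over 22 libraries, the median correlation of log2 deviations from the group mean between pairs of members was 0.47, and 0.85 with copies summed. It was 0.57 among the mitochondrial ribosomal proteins, 0.84 among the biogenesis factors, 0.33 among initiation factors and 0.26 among elongation factors. The libraries share their scaling factor in each pair, so these are descriptions. Rpl8, of the large subunit, followed the mean of the other members most closely (r = 0.95), and Rps24 (0.94), Rps19 (0.94) and Rps9 (0.93), all of the small subunit, came next. Rps6 (-0.17) and Rps29 (-0.12) had the lowest values, and both had under 5% of the summed counts on their own gene.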

How the data were processed

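RNA was measured in 22 libraries of CD8+ T cells in 8 groups. Per the submitters' processing notes, reads were handled with bcl2fastq 2.20.0, TopHat2 2.1.0, Bowtie2 2.2.5, SAMtools 0.1.19, featureCounts and DESeq2 1.6.3 on GRCm38 (mm10). How reads with several matches and the strand were counted is not given in the sources used here. The deposited count table held whole-number read counts per gene. The deposited log2 table, log2 of normalized counts, was used for gene names and positions. The deposited FPKM values were used only to compare levels between members.

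Counts were filtered with filterByExpr (minimum count 10, total 15), scaled with TMM factors, and fitted as 8 group means over 22 libraries with 14 residual degrees of freedom, with robust dispersion, in edgeR 4.0.16 under R 4.3.3. Comparisons used edgeR's quasi-likelihood F test. P-values were adjusted by Benjamini and Hochberg's method over 21183 genes, with calls at adjusted p under 0.05. Values after ± beside log2 changes are standard errors. CPM use TMM-adjusted totals. No columns of other samples were present (0).

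Copies were GENCODE pseudogenes and coding entries named as copies, matched to member transcripts with blastn 2.17.0 (identity at least 90%, coverage at least 50%, E-value at most 1e-20), each to its best match, and summed with the member's count. This step was chosen after seeing the data. Starts and ends of 79 of 81 members equal those of the GENCODE annotation. Promoters are RefSeq's.

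Members named are the variants and their namesakes, the stalk proteins, Rpsa, Rps6, Rpl5 and Rpl11, in each comparison the 5 called members with the smallest p in each direction and the 3 farthest from the members' median, and the 5 highest and 5 lowest by FPKM. Beyond these, some are named for their copies or covariation after their values were seen. The members, the gene lists and the rule were chosen with earlier results of these data known, and the list of mitochondrial ribosomal proteins was added later. The fit was tested on simulated counts with known changes in wt at 48 h alone and no experiment or mouse effect. That test does not cover the pairing of libraries, and its outcome is not given here. Experiment numbers and mice pair the libraries, since the labels name both: over all tested genes, the median correlation of deviations from group means was 0.39 between KI and wt libraries of the same experiment and time (9 pairs) and -0.23 for other experiments, and 0.22 between libraries of the same mouse (20 pairs) and -0.01 between mice. Deviations within a group sum to 0, so the value for other experiments is largely set by that for the same experiment. Each mouse is a separate animal. Alternatives were DESeq2 1.42.0, upper-quartile scaling, library size alone, TMM without the members, no filter, the compared groups alone, blocks for experiment and mouse, leaving out each mouse or the KO 48 h library of experiment 1, and counts with copies. Protein sequences were not used here. Values of a few single genes are not reported here.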

Additional observations from a re-analysis of the deposited data

Results flagged for a closer look

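Counts at the matched copies of the members are not part of the comparisons on the genes' own counts, and they exceeded the members' counts in all 22 libraries. They took from 3.43% of all counts (the library labelled KO 48 h from experiment 5) to 5.58% (wt naive from experiment 5). Both values describe a signal outside the main measurement.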

How the results depend on the processing

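Of 396 alternative values for counts and medians over the members, 358 stayed within 1.5 times the reported count or within the SD between libraries (0.16 on the log2 scale), and 38 moved further. Of 696 alternative values for named calls, 614 kept direction and call, 78 kept the direction only and 4 reversed. The cause was not tested. Upper-quartile scaling gave median changes of -0.28 and -0.23 in wt at 24 h and 48 h, -0.15 and -0.16 in KI, and -0.067 in KO. Counts with matched copies reversed Rpl36a in wt (-0.23 at 24 h and -0.20 at 48 h), Rpl9 in KI at 24 h (0.036) and Rps29 in KI at 48 h (-0.32), and left 11 calls in KI at 48 h and 0 between KI 48 h and 24 h. Fitting the compared groups alone gave 29 calls in KI at 24 h, 31 in KI at 48 h, 2 in KO, where Rps27l also lost its call, and 0 between wt 48 h and 24 h. The shares of all genes called in these fits were not counted, so whether the members moved more than other genes is not known. With library size alone, 0 members were called between KI 48 h and 24 h.

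With the experiment as a replicate block, 2 members were called between wt 48 h and 24 h (8.57% of all genes) and 0 between KI 48 h and 24 h, where the block for mouse also gave 0. Rpl10 in that KI comparison had an adjusted p of 0.0569 and 0.0700 with these pairings, and Rpl30 in KO 0.0593 with the block for mouse. The blocks ended no other named call.

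Leaving out 1 mouse gave 12 to 18 calls in wt at 24 h and 12 to 21 at 48 h, 9 to 14 in KI at 24 h and 11 to 15 at 48 h, and 0 between 48 h and 24 h in wt and in KI. Shares of all genes called also fell. Without wt replicate 1 they were 33.2% at 24 h and 41.6% at 48 h, against 48.3% and 56.3% with all mice. Without KI replicate 1 they were 23.9% and 35.4%, and without KI replicate 3 23.1% and 35.1%, against 38.7% and 48.6%. Between wt 48 h and 24 h the share without wt replicate 1 was 0.636%, against 7.49%. Shares without the other wt and KI mice were not counted. In KO the median ranged from -0.30 to 0.40, in KO against wt at 48 h from -0.11 to 0.26 with 0 to 6 calls, and in the KO interaction from -0.22 to 0.47 with 0 to 3 calls. The most calls in both came without KO replicate 5, where 21.5% and 6.12% of all genes were called. Without the library labelled KO 48 h from experiment 1, these 3 medians were -0.13, -0.11 and -0.092. With 1 KO mouse or library left, its spread was assumed to equal that of the other groups. The lowest library total was 62551905 counts, and the placement of reads between genes and copies was not tested.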
